A study of Solanum tuberosum with 5 samples.

Results

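Potato plantlets after 2 days of short days (SD day 2) are set here against plantlets kept in long days for the same 2 days (LD day 2), with 1 library each. The members are the 7108 sequence tags, of 27553 distinct tags in the series, that both libraries listed and that reached 10 tags per 1000000 in at least 1 of them. The comparison asks which transcripts differ early after the change of photoperiod. Short days favour tuber formation in potato. Leaves sense day length through phytochrome and clock-controlled factors, and in short days the mobile protein SP6A, a relative of the flowering signal FLOWERING LOCUS T, moves through the phloem to stolons, where tubers form. In long days this signal is held down, partly through the CONSTANS-like factors that act downstream of phytochrome B. These statements are background and were not tested, because no tag could be matched to a gene here.

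Plantlets of Solanum tuberosum of the genotype labelled E26 spent 3 weeks in long days (LD) and were then moved to short days (SD) or kept in LD. The SD day 2 library holds plantlets with 2 days of SD after those weeks, and the LD day 2 library holds plantlets with 2 further days of LD. LD day 0 was taken before the transfer, and SD day 5 and LD day 5 were taken 5 days after it. Each of these 5 groups is 1 library of polyadenylated RNA from whole plantlets. Neither the number of plantlets in a library nor the hour of sampling is given in the labels. With whole plantlets, fewer cells of a type and less RNA per cell cannot be told apart, and no tissue marker could be checked.

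Each library is a tag library: a transcript is represented by a 21-base tag that starts at CATG, the site of the restriction enzyme NlaIII. A value is the number of such tags per 1000000 in its library, headed TPM by the authors and called TPM below. The SD day 2 library held 3507407 tags and the LD day 2 library 3545583. A value of 10 TPM rested on 35.1 whole tags in SD day 2, against 35.5 in LD day 2.

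The 7108 members are those of the 12542 tags listed in both day 2 libraries that passed the floor of 10 TPM. For each, the log2 ratio of SD day 2 over LD day 2 was taken after adding 1 TPM to both values. A tag is called higher or lower in SD day 2 when this ratio is at least 1 in size, a 2-fold difference. Since each photoperiod has 1 library, no test was possible, and every count below describes these libraries and not the photoperiods. Intervals are exact 95% counting intervals, which leave out the variation between plantlets.

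After 2 days in SD many more tags were lower than higher. Of the 7108 tags, 531 were higher in SD day 2 (7.47%) and 1441 were lower (20.3%), so that 27.7% differed 2-fold or more in either direction. The asymmetry was larger at 4-fold than at 2-fold, and did not grow further at 8-fold. At 4-fold or more, 32 tags were higher (0.45%) and 570 were lower (8.02%). At 8-fold or more, 8 were higher and 137 were lower. The middle of the distribution was close to 0, with a median log2 ratio of -0.03, while the 5th percentile was -2.44 and the 95th was 1.16. The difference lay mostly in a long lower tail.

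The counting interval of the ratio excluded 1 for 4455 tags, or 62.7% of the members, and for all 531 higher and 1441 lower tags. For the called tags this follows from the floor and the 2-fold rule, so it adds no support to the calls. It lay wholly past 2-fold for 171 of the higher tags and 899 of the lower ones. The balance depended in part on scaling. Dividing by median-of-ratios factors moved the log2 ratios up by 0.109 before the pseudocount and gave a median of 0.09. Rescaling to the sum of the listed tags moved them up by 0.139 and gave a median of 0.12, since listed tags summed to 50.9% of the SD day 2 library and 56.1% of the LD day 2 library. Under the second scaling the split was 791 higher and 1267 lower, which raised the share of higher tags among the calls to 38.4%, against 26.9% with the values as deposited.

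**Figure D1:**
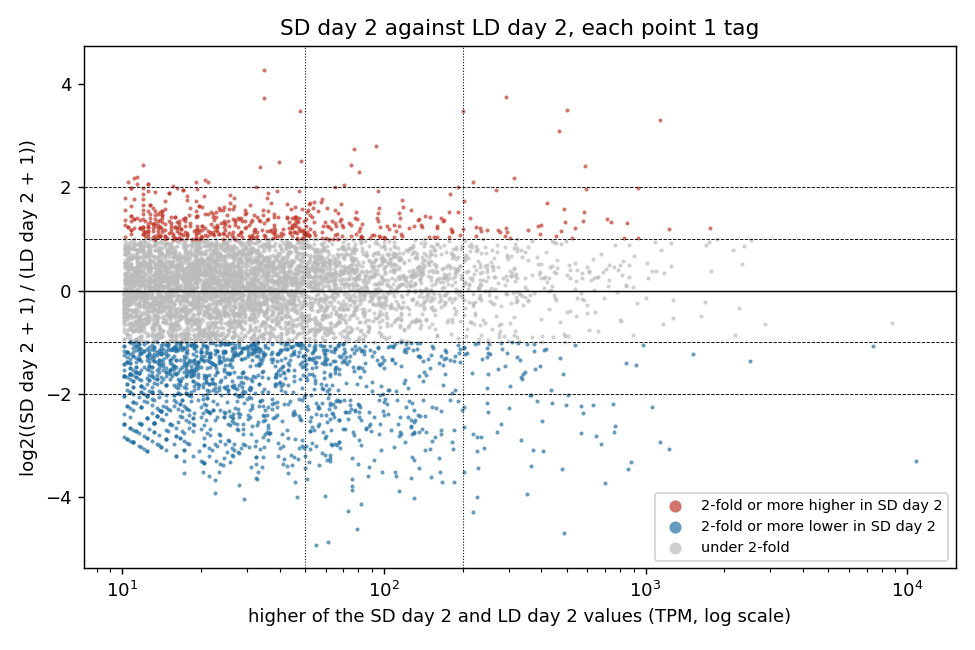
Each point is 1 of the 7108 tags, with the higher of its SD day 2 and LD day 2 values in TPM (log scale) on the horizontal axis and the log2 ratio of SD day 2 over LD day 2, after adding 1 TPM, on the vertical axis. Dotted lines mark 50 and 200 TPM, dashed lines mark 2-fold and 4-fold, and the tail of points below -2 holds 570 tags, against 32 above 2.

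The lower tail was present at every abundance. Members were sorted by the higher of their values into bands of 10 to 50 TPM, 50 to 200 TPM and 200 TPM or more, which held 5054, 1629 and 425 tags. In the 10 to 50 TPM band 364 tags were higher (7.20%) and 990 lower (19.6%). In the 50 to 200 TPM band 122 were higher (7.49%) and 359 lower (22%). In the band of 200 TPM or more, 45 were higher (10.6%) and 92 lower (21.6%). The share of lower tags thus differed little between bands.

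With bands set by the higher of the day 2 values, tags 4-fold or more lower were more frequent in the upper bands than at 10 to 50 TPM. This was not so with bands set by day 0, as given further on. On the higher side only the band of 200 TPM or more stood apart, with 8 of its 425 tags 4-fold or more higher. Tags 4-fold or more lower made up 6.89% of the 10 to 50 TPM band, 10.8% of the 50 to 200 TPM band and 10.8% of the band of 200 TPM or more. On the higher side the same shares were 0.356%, 0.368% and 1.88%. Of the 8 tags that were 8-fold or more higher, 5 stood in the band of 200 TPM or more and none in the 50 to 200 TPM band. The pseudocount of 1 TPM shrinks the ratios of less abundant tags more than those of abundant ones, and its part in this gradient was not tested. The median log2 ratio was -0.05, 0.00 and 0.06 in the 3 bands, from low to high. Just under the floor, among 2281 tags whose higher value was 5 to 10 TPM, 7.01% were higher and 17.6% lower, against 7.43% and 20% of the 1440 tags at 10 to 15 TPM.

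**Figure D2:**
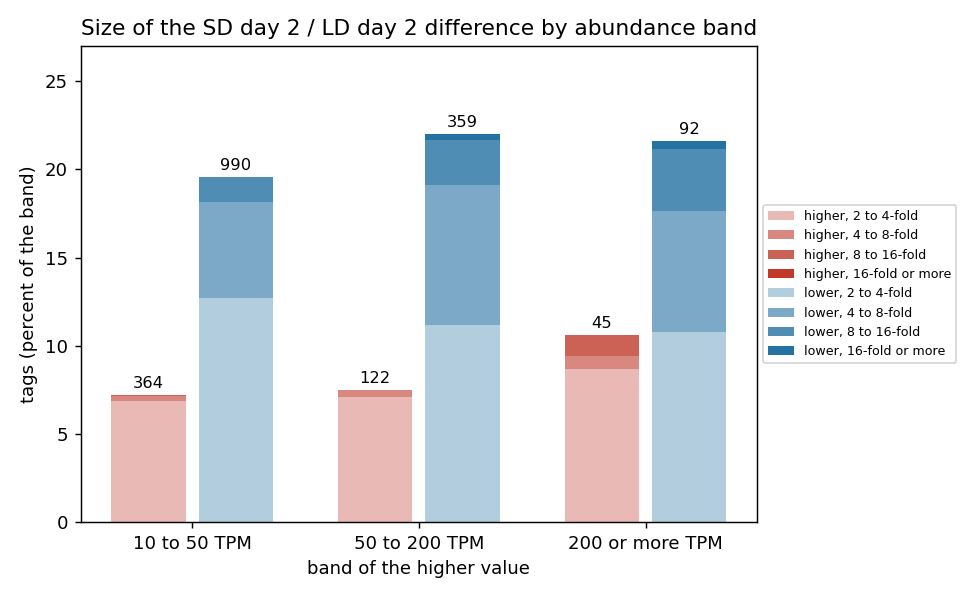
Bars give the percent of tags in each abundance band that were higher (red) or lower (blue) in SD day 2, split by fold class on the scale with 1 TPM added, with the number of tags printed above each bar. Lower tags reach 19.6% to 22% of every band, and higher tags 7.20% to 10.6%.

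The day 0 library places these differences in time. Of the 531 higher tags, 482 were listed in LD day 0, and the day 0 value was nearer to SD day 2 for 394 of them (81.7%) on the log2 scale with 1 TPM added. The median log2 ratio of these 482 tags to day 0 was 0.13 for SD day 2 and -1.15 for LD day 2. For most of them the LD day 2 value lay below day 0 while SD day 2 lay near it. For 320 of the 482 (66.4%) the day 0 value was within 1.5-fold of SD day 2 and not of LD day 2, and for 58 (12%) it was within 1.5-fold of LD day 2 and not of SD day 2.

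The lower tags had another layout. Of the 1441, 1277 were listed in LD day 0, and for 986 of these (77.2%) the day 0 value lay between SD day 2 and LD day 2. Their median log2 ratio to day 0 was -0.67 for SD day 2 and 1.17 for LD day 2. SD day 2 thus stood below day 0 and LD day 2 above it. The day 0 value was below both for 217 tags (17%) and above both for 74 (5.79%). It was nearer to SD day 2 for 838 tags (65.6%) and nearer to LD day 2 for 439 (34.4%). Among tags under 2-fold, the value was nearer to SD day 2 for 2673 of 4605 (58%), so the lean towards SD day 2 was not limited to tags that differed.

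In most tags that were 4-fold or more lower, both day 2 libraries lay away from day 0. Of the 570 tags that were 4-fold or more lower, 503 were listed at day 0, and the day 0 value lay between for 462 of them (91.8%) and within 1.5-fold of neither for 368 (73.2%). Their median log2 ratio to day 0 was -1.10 for SD day 2 and 1.62 for LD day 2. Of the 32 tags that were 4-fold or more higher, 28 were listed at day 0, where the median log2 ratio was 0.01 for SD day 2 and -2.40 for LD day 2. A pair of values far apart leaves more room for another value between them, so these positions are a description of 3 single libraries.

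**Figure D3:**
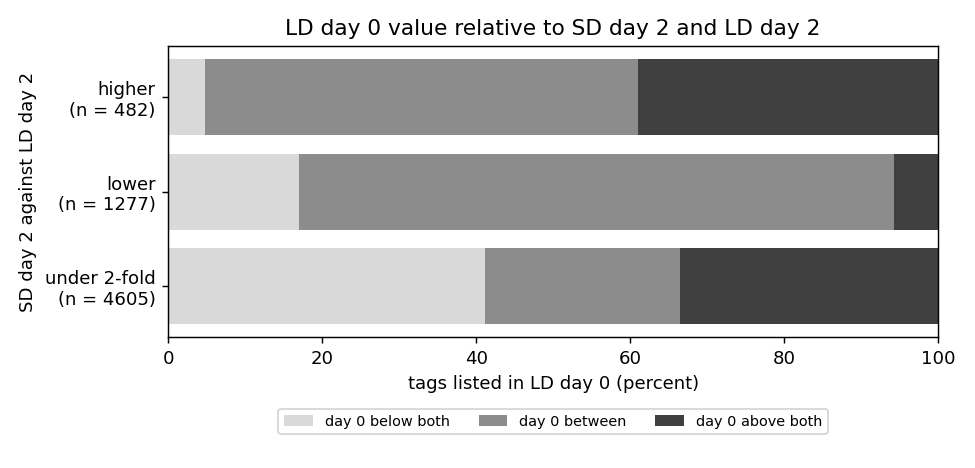
Bars give the percent of tags, among those listed in LD day 0, whose day 0 value was below both day 2 values, between them or above both, for tags higher, lower or under 2-fold in SD day 2 against LD day 2. The day 0 value lies between for 77.2% of the lower tags and above both for 39% of the higher tags.

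In each band the day 0 value was nearer to SD day 2 for most called tags. Among lower tags the day 0 value was nearer to SD day 2 for 64.1% in the 10 to 50 TPM band, 69.4% in the 50 to 200 TPM band and 67.4% in the band of 200 TPM or more. Among higher tags the same shares were 79.6%, 85.5% and 88.6%. The commonest position of day 0 differed between bands on the higher side: it was between the day 2 values for 58.2% and above both for 36.9% in the 10 to 50 TPM band, and between for 40.9% and above both for 54.5% at 200 TPM or more. The members were next sorted by the day 0 value, which took no part in choosing them. Among those listed at day 0, the lower share was largest for tags that were rare before the transfer. It was 39.6% of the 1302 members under 10 TPM at day 0, 16.5% of 3598 at 10 to 50 TPM, 11.9% of 1151 at 50 to 200 TPM and 10.2% of 313 at 200 TPM or more. Tags 4-fold or more lower made up 18.3%, 5.70%, 4.17% and 3.83% of the same day 0 bands. The higher share ran the other way, at 4.76%, 7.67%, 8.34% and 15.3%. Of the 744 members that LD day 0 did not list, 22% were lower, 9.01% were 4-fold or more lower and 6.59% were higher. A member under 10 TPM at day 0 had to reach 10 TPM in SD day 2 or LD day 2, so the floor bears on the shares in that band. In the top day 0 band higher tags numbered 48 and lower tags 32, the reverse of the balance over all members.

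The day 5 libraries, which share no library with the day 2 pair, show where the same tags stood later. In the 1086 lower tags listed in all 5 libraries, the median value was 7.13 TPM in SD day 2, against 27.8 TPM in LD day 2, with 12.7 TPM in LD day 0, and at day 5 it was 30.9 TPM in SD and 31.6 TPM in LD. The tags that were low in SD day 2 had similar medians in both photoperiods at day 5. Summed over these tags, SD day 2 held 22067 TPM, against 86296 TPM in LD day 2 and 37579 TPM in LD day 0. The sums at day 5 were 94870 TPM in SD and 94388 TPM in LD.

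The 401 higher tags listed in all 5 libraries had medians of 30.8 TPM in SD day 2 and 11.6 TPM in LD day 2, with 27.3 TPM in LD day 0. At day 5 their medians were 10.9 TPM in SD and 10.03 TPM in LD, both near the LD day 2 level. The 3957 tags under 2-fold had medians between 19.5 and 24.2 TPM in all 5 libraries.

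**Figure D4:**
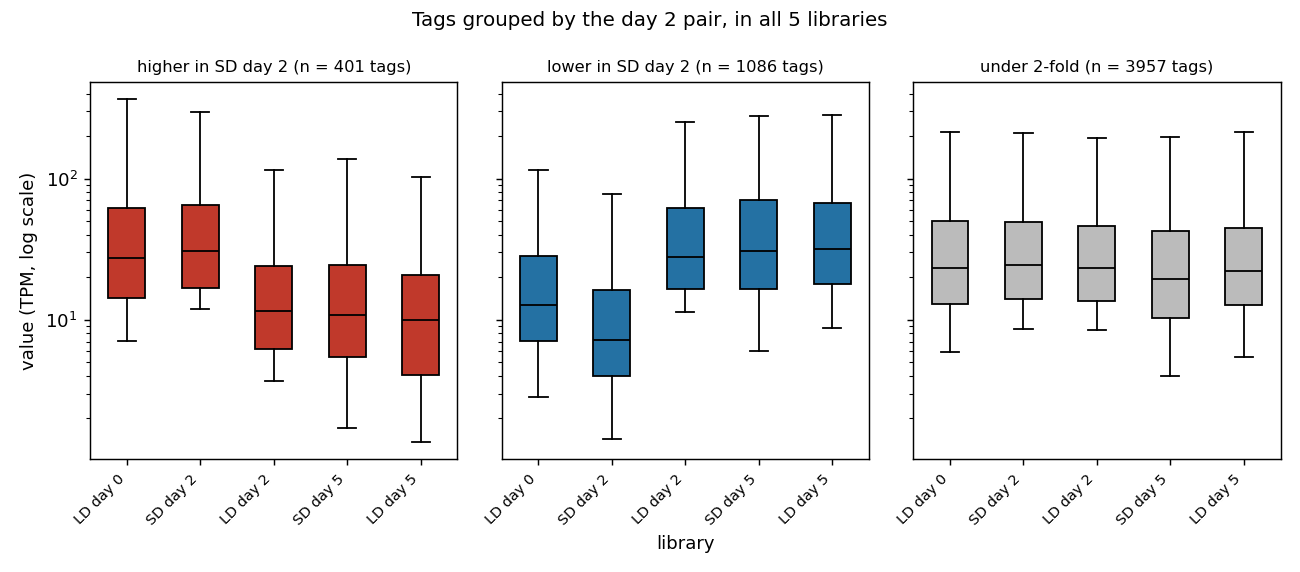
Boxes give the median and quartiles, and whiskers the 5th to 95th percentile, of the values in TPM (log scale) over tags listed in all 5 libraries, for tags higher, lower or under 2-fold in SD day 2 against LD day 2. The lower tags have a median of 7.13 TPM in SD day 2 against 27.8 TPM in LD day 2, and 30.9 TPM in SD day 5 against 31.6 TPM in LD day 5.

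Most differences of day 2 were not seen between the day 5 libraries. Over all 7194 tags of the day 5 pair, chosen by the same floor, 2.74% were higher and 7.76% lower in SD day 5, or 10.5% in either direction. Of the 1111 lower tags of day 2 that entered the day 5 pair, 79 were again lower (7.11%) and 18 were higher (1.62%), shares close to or under that background. Of the 443 tags that were 4-fold or more lower at day 2, 11 were lower (2.48%) and 11 higher at day 5, and 285 (64.3%) had a log2 ratio above 0, against 44.4% of all tags of the day 5 pair.

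Among the higher tags that entered the day 5 pair, the share called in the same direction at day 5 was above the background. Of the 531 higher tags 254 entered that pair, against 1111 of the 1441 lower tags. A tag near the floor can enter through the library in which it is high, so the floor bears on these shares. Of the 254, 34 were again higher (13.4%, against 2.74%) and 10 were lower (3.94%). By band, 8.27% of 133 were again higher in the 10 to 50 TPM band, 16.3% of 86 in the 50 to 200 TPM band and 25.7% of 35 in the band of 200 TPM or more. The 2.74% is over tags of every abundance, and no background is given for single bands. In the top band the share rests on 9 tags, which include a pair 2 bases apart that is described below. Of the 32 tags that were 4-fold or more higher at day 2, 16 entered the day 5 pair. Of these 16, 10 were again 2-fold or more higher and 1 was lower, with a median day 5 log2 ratio of 1.57.

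The tags with the largest ratios show these layouts singly. On the higher side of the band of 200 TPM or more, the first had 293 TPM in SD day 2 and 20.9 TPM in LD day 2, or 14-fold higher with an interval of 11.1 to 18. It had 355 TPM in LD day 0, and 95.9 TPM in SD day 5 against 8.68 TPM in LD day 5. The second had 499 TPM in SD day 2 and 43.4 TPM in LD day 2, or 11.5-fold higher with an interval of 9.74 to 13.6, with 984 TPM in LD day 0, 155 TPM in SD day 5 and 36.9 TPM in LD day 5. In both, every later library was below day 0, and LD was lower than SD on each day.

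The third, at 201 TPM in SD day 2 and 17.2 TPM in LD day 2, was 11.7-fold higher (interval 9 to 15.5). It had 545 TPM in LD day 0, 64.7 TPM in SD day 5 and 10.8 TPM in LD day 5. This tag differs at 2 of its 21 bases from the first, and the pair ran in parallel. They are not taken as independent cases, although both are included in the counts of tags given above. Against LD day 0 in place of LD day 2, the log2 ratios of the 3 tags are -0.28, -0.98 and -1.43, where they are 3.75, 3.49 and 3.47 against LD day 2. None of them was above its level before the transfer.

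In the 50 to 200 TPM band the first tag on the higher side had 93.5 TPM in SD day 2 and 12.7 TPM in LD day 2, or 7.37-fold higher with an interval of 5.38 to 10.3, with 75.2 TPM in LD day 0. At day 5 it had 24.1 TPM in SD and 2.98 TPM in LD. The second had 77.0 TPM in SD day 2 and 10.7 TPM in LD day 2, or 7.18-fold higher with an interval of 5.10 to 10.4. Its day 0 value was 27.9 TPM, with SD day 2 above it and LD day 2 below it. The third had 74.7 TPM in SD day 2, 13.0 TPM in LD day 2 and 74.1 TPM in LD day 0, and 7.16 TPM in SD day 5.

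In the 10 to 50 TPM band the largest ratios rested on few tags in LD day 2. The first had 34.8 TPM in SD day 2 and 0.85 TPM in LD day 2, from 122 and 3 whole tags, or 40.9-fold higher with an interval of 13.7 to 202. It had 13.8 TPM in LD day 0, 18.6 TPM in SD day 5 and 2.98 TPM in LD day 5. The second also had 34.8 TPM in SD day 2, with 1.69 TPM in LD day 2 from 6 whole tags, or 20.6-fold higher with an interval of 9.18 to 57.1. Its day 0 value was 43.1 TPM, above SD day 2, so that its log2 ratio is -0.30 against LD day 0 and 3.73 against LD day 2. The third had 47.9 TPM in SD day 2 and 3.38 TPM in LD day 2, or 14.2-fold higher with an interval of 7.89 to 27.9, and LD day 0 did not list it.

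On the lower side of the band of 200 TPM or more, the first tag had 18.0 TPM in SD day 2 and 486 TPM in LD day 2, or 27.1-fold lower with an interval of 21.1 to 35.4. It had 66.2 TPM in LD day 0 and 486 TPM in SD day 5. The second had 10.3 TPM in SD day 2 and 219 TPM in LD day 2, or 21.3-fold lower with an interval of 15.3 to 30.7, with 52.7 TPM in LD day 0. Both were under their day 0 level in SD day 2 and several times above it in LD day 2.

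At day 5 the second tag had 271 TPM in SD and 304 TPM in LD, a ratio of 0.892. The third had 13.4 TPM in SD day 2 and 227 TPM in LD day 2, or 16.9-fold lower with an interval of 12.6 to 23.3, with 29.9 TPM in LD day 0. Its day 5 values were 196 TPM in SD and 262 TPM in LD. SD day 2 held the lowest value of each of these tags among the libraries that listed it.

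The 50 to 200 TPM band held the largest log2 ratio of all members in size. That tag had 0.86 TPM in SD day 2, from 3 whole tags, and 55 TPM in LD day 2, or 64-fold lower with an interval of 21.7 to 314, with 8.46 TPM in LD day 0, 51.8 TPM in SD day 5 and 57.5 TPM in LD day 5. The second had 1.14 TPM in SD day 2 and 61.2 TPM in LD day 2, or 53.7-fold lower with an interval of 20.7 to 199, with 4.79 TPM in LD day 0, and neither day 5 library listed it. The third had 2.28 TPM in SD day 2 and 78.7 TPM in LD day 2, or 34.5-fold lower with an interval of 17.3 to 80.7. Its values were 8.46 TPM in LD day 0, 197 TPM in SD day 5 and 152 TPM in LD day 5, so that both photoperiods ended far above day 0.

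In the 10 to 50 TPM band the first tag on the lower side had 0.86 TPM in SD day 2 and 29.3 TPM in LD day 2, or 34.1-fold lower with an interval of 11.4 to 169. The second had 2 TPM in SD day 2 and 46.5 TPM in LD day 2, or 23.3-fold lower with an interval of 11.1 to 58.9, with 5.07 TPM in LD day 0, 44.1 TPM in SD day 5 and 41.5 TPM in LD day 5. The third had 0.57 TPM in SD day 2 and 22.6 TPM in LD day 2, and the SD day 2 value is the lowest that library lists. These ratios rest on 2 to 7 whole tags in SD day 2, and their size is known only within wide intervals.

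Some tags lay near day 0 in 1 of the day 2 libraries and far from it in the other. Among lower tags with 50 TPM or more in LD day 2 and a day 0 value within 1.5-fold of SD day 2, the largest ratio belonged to a tag with 9.41 TPM in SD day 2, 127 TPM in LD day 2 and 11.6 TPM in LD day 0. Its SD day 2 value was 13.5-fold lower (interval 9.49 to 19.9), and at day 5 it had 132 TPM in SD and 137 TPM in LD. The next had 8.84 TPM in SD day 2, 111 TPM in LD day 2 and 11.3 TPM in LD day 0, and 110 TPM in SD day 5 against 104 TPM in LD day 5. In both, SD day 5 stood at the level that LD had at day 2. Another member differs from the second at 2 bases and was also lower, at 1.14 TPM in SD day 2 and 20.6 TPM in LD day 2.

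The opposite layout, with day 0 near LD day 2, was seen in a tag with 15.7 TPM in SD day 2, 107 TPM in LD day 2 and 82.0 TPM in LD day 0. Its SD day 2 value was 6.80-fold lower (interval 5.11 to 9.19), and it had 189 TPM in SD day 5 against 138 TPM in LD day 5. A further tag had 10.3 TPM in SD day 2, 62.3 TPM in LD day 2 and 45.9 TPM in LD day 0, and 81.9 TPM in SD day 5. These tags were low in SD day 2 alone among the libraries that listed them.

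On the higher side, among tags with 50 TPM or more in SD day 2, the largest ratio with day 0 near LD day 2 was smaller. That tag had 144 TPM in SD day 2, 52.7 TPM in LD day 2 and 43.4 TPM in LD day 0, 2.74-fold higher in SD day 2 (interval 2.31 to 3.25). It was higher at day 5 too, with 147 TPM in SD and 68.1 TPM in LD. The next had 50.5 TPM in SD day 2, 18.6 TPM in LD day 2 and 26.8 TPM in LD day 0, and 16.3 TPM in SD day 5 against 3.80 TPM in LD day 5. With day 0 near SD day 2, the tag after the first one named in the band of 200 TPM or more had 466 TPM in SD day 2, 53.9 TPM in LD day 2 and 384 TPM in LD day 0, 8.65-fold higher in SD day 2 (interval 7.44 to 10.1).

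The 5 most abundant members all had a smaller value in SD day 2, 2 of them by 2-fold or more. The most abundant had 5707 TPM in SD day 2 and 8764 TPM in LD day 2, a ratio of 0.651, with 2889 TPM in LD day 0, so both day 2 libraries lay above day 0. The next had 1103 TPM in SD day 2, 10796 TPM in LD day 2 and 3096 TPM in LD day 0, and was 9.79-fold lower (interval 9.47 to 10.1). The third had 3487 TPM in SD day 2, 7374 TPM in LD day 2 and 3530 TPM in LD day 0. Its ratio of 0.473 gave a log2 ratio of -1.08, which became -0.97 with median-of-ratios factors, under the 2-fold line. The other two had ratios of 0.642 and 0.796.

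Near-identical tags offered a view on the same ratios from within the libraries. There were 41 pairs of members that differ at 1 base. In 9 pairs both tags were lower, in 2 both were higher and in 23 both were under 2-fold. In 4 pairs 1 tag was higher and the other under 2-fold, and in 3 pairs 1 was lower and the other under 2-fold. No pair was called in opposite directions. With 7.47% of all members higher and 20.3% lower, such pairs would be rare among 41 unrelated pairs too, so their absence carries little weight. The median difference of the log2 ratio within a pair was 0.30. What such a pair stands for cannot be told from the lists.

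Base composition differed in the lower tags, by little beside its spread over tags. The share of G and C averaged 39.7% ± 9.94 in the higher tags and 37.4% ± 9.46 in the lower tags, against 39.8% ± 9.57 in tags under 2-fold (SD over tags), and it was 36.4% in tags that were 4-fold or more lower. Of tags with under 30% G and C, 26.5% were lower, against 21.4% at 30 to 40%, 17.9% at 40 to 50%, 13.7% at 50 to 60% and 13.4% at 60% or more. The share of higher tags had no steady trend over the same bins, at 6.56%, 7.58%, 7.06%, 9.98% and 5.51%. The median log2 ratio was -0.18, -0.08, 0.01, 0.19 and 0.11 in the same bins. With each ratio centred on the median of its bin, an alternative added after the data had been seen, 593 tags were higher and 1390 lower. The part of base composition in the lower tail was not tested beyond this centring.

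The order of the lists, examined after the data had been seen, allowed a look at tags that only 1 of the day 2 libraries listed. Both day 2 files list their 12542 shared tags in the same order. At 1633 places each file had exactly 1 unshared tag between a given pair of shared neighbours, and the values of these different tags correlated across places at r = 0.86 on the log2 scale with 1 TPM added, close to r = 0.869 across shared tags of the same pair of libraries. Places are not independent replicates, and they share library depth. At 997 places with 10 TPM or more in at least 1 library, the SD day 2 tag was 2-fold or more higher at 74 (7.42%) and lower at 202 (20.3%), against 7.47% and 20.3% of the members. At 4-fold or more, 5 places were higher (0.502%) and 92 were lower (9.23%), against 0.45% and 8.02% of the members. The paired tags differed at a median of 12 of the 17 bases after CATG, at 7 or more bases in 1546 places and at 1 base in 77. The labels do not say what a place in the list stands for.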

How the data were processed

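Tag libraries of 5 plantlet groups were used, with 1 library per group, made with an Illumina gene expression kit, per the labels' protocols. The deposited values are tags per 1000000 tags (RPM), which the authors headed TPM per the file headers, with no division by length. The aligner and reference, and any filter on tags, were not given in the sources used here. At least 99.98% of the values of each library lay within 0.006 TPM of a whole multiple of 1 step, and the step gave the library totals, from 3492458 to 3688120 tags. The lowest value was 2 tags. Intervals of a ratio are exact Clopper-Pearson intervals of these whole tags conditional on their sum, at 95%. Without molecular identifiers, tags can be copies of 1 molecule, so intervals cover counting error only.

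Tags were joined by sequence, and a tag missing from a library was not taken as 0. Log2 ratios used a pseudocount of 1 TPM and understate the change of rare tags. Folds are ratios of the values without it. Named tags are the 3 with the largest ratios in each band and direction, the 5 most abundant by the mean of both day 2 values, and in each direction the 2 with the largest ratio, at 50 TPM or more, whose day 0 value was within 1.5-fold of SD day 2 or of LD day 2. They are told apart by rank, and no sequence is printed. The members and rules were chosen with earlier results of these data known. The calling and the intervals were tested on data simulated with counting error only. That simulation held no variation between plantlets, so it cannot show how the calls behave under such variation. Python 3.11.15, pandas 2.3.3 and scipy 1.17.1 were used. Alternatives were other pseudocounts, floors, scalings, bands and control libraries.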

Additional observations from a re-analysis of the deposited data

Results flagged for a closer look

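Signal lay outside the members. SD day 2 listed 1638 tags at 10 TPM or more that LD day 2 did not list, 21.9% of its 7475 tags at that level, with a median of 28.5 TPM and a highest value of 2801 TPM. LD day 2 listed 1902 such tags that SD day 2 did not list, 22.8% of 8327, with a median of 28.5 TPM and a highest value of 4720 TPM. They held 10.2% of the SD day 2 library and 11.3% of the LD day 2 library. Of the 1638, 560 were listed in no other library, and of the 1902, 590. Since 2 tags are enough to be listed, these tags were left out and not set to 0. Among unshared tags of any value, 1633 places of the lists held exactly 1 in each library, with values correlated at r = 0.86, as given above. A tag that 1 library did not list is therefore not read as a transcript absent from it.

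The direction differed between days for a few tags. Of the 254 higher tags of day 2 that entered the day 5 pair, 10 were lower in SD at day 5 (3.94%). Of the 1111 lower tags that entered it, 18 were higher in SD at day 5 (1.62%). Over all tags of the day 5 pair these shares were 7.76% and 2.74%, so both counts lay under the background. The tag farthest apart had 7.41 TPM in SD day 2 against 88 TPM in LD day 2, and 139 TPM in SD day 5 against 60.7 TPM in LD day 5. It was chosen after its values were seen. With 1 library behind each value, that difference was not tested.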

How the results depend on the processing

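Each count and median was recomputed under other settings, and 89 of 127 recomputed values stayed within 1.5 times the count or within the binomial interval of the median. The exceptions follow. Among tags 2-fold or more higher there were 308 with a pseudocount of 5 TPM, 826 with no floor, 167 with a floor of 50 TPM, 1134 against LD day 5 and 223 against the mean of the 3 LD libraries. Among tags 2-fold or more lower there were 451 with a floor of 50 TPM and 869 against LD day 0. Tags 4-fold or more higher numbered 50 and 16 with pseudocounts of 0.1 and 5 TPM, 14 with a floor of 50 TPM, 55 rescaled to the listed tags, 53 against LD day 0, 446 against LD day 5 and 3 against the LD mean. Tags 4-fold or more lower numbered 271 with a pseudocount of 5 TPM, 222 with a floor of 50 TPM, 110 against LD day 0 and 376 against the LD mean. A higher floor tests fewer tags, and another LD library is another contrast. The cause of the other moves was not tested. Against LD day 0 and LD day 5 the share of higher tags among the calls was 40.4% and 40.2%.

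The median log2 ratio was 0.0004 with no floor, 0.0078 with a floor of 50 TPM, 0.011 with TMM factors, 0.093 with median-of-ratios factors, 0.1241 rescaled to the listed tags, -0.1385 against LD day 5, -0.0648 against the LD mean and 0 by construction when centred on base composition. In the 10 to 50 TPM band there were 168 higher tags with a pseudocount of 5 TPM, and 592 lower tags with bands set by day 0. In the 50 to 200 TPM band there were 197 higher tags after rescaling, and 211 and 137 lower tags with bands by the mean of both values and by day 0. In the band of 200 TPM or more these were 68, 56 and 32. Higher tags with day 0 nearer to SD day 2 numbered 229 with a pseudocount of 5 TPM, those with day 0 nearer to LD day 2 numbered 49 with that pseudocount and 151 after rescaling, and lower tags with day 0 nearer to LD day 2 numbered 285 with that pseudocount. Of 295 recomputed ratios of named tags, 9 changed sign. In tags past 2-fold these were 4, all against LD day 0, at -0.30, -0.28, -0.98 and -1.43. In abundant tags under 2-fold they were 5, at 0.98, 0.12 and 0.26 against LD day 0, 0.36 against LD day 5 and 0.09 against the LD mean. A further 56 of the 295 ratios left the counting interval around the main ratio, not counting the 4 sign changes in tags past 2-fold. Another floor, or keeping only tags listed in all 5 libraries, cannot alter the ratio of a single tag. Part of the 295 ratios were thus fixed in advance, and the small number of sign changes is no measure of stability. Over all members, lower tags outnumbered higher ones at 2-fold under every setting run, but with bands set by day 0 the band of 200 TPM or more held 48 higher and 32 lower. No paired analysis was possible because each group has 1 library.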
